A study of Mus musculus with 12 samples.

Results

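The genes described here are 10 apolipoprotein and lipoprotein assembly genes of mouse liver, *Apob*, *Mttp*, *Apoa1*, *Apoa2*, *Apoa4*, *Apoa5*, *Apoc2*, *Apoc3*, *Apoe*, and *Apom*. They were chosen by symbol, with earlier results of these data known. All 10 are among the 22456 genes with a deposited expression value (RPKM). RPKM is the read count of a gene scaled to transcript length and to the mapped reads of the library. All 10 passed the minimum of a mean of 0.5 RPKM that left 11507 genes for testing. A second measurement, read counts over skipped exon (SE) events, was used for the same genes.

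Lipoproteins carry triglyceride and cholesterol through the blood in particles coated with phospholipid and apolipoproteins. Hepatocytes build very low density lipoprotein (VLDL) around *Apob* protein, to which the *Mttp* product adds lipid in the endoplasmic reticulum, and they also secrete the apolipoproteins of high density lipoprotein (HDL) and the small exchangeable apolipoproteins that direct lipolysis and uptake. Fasting brings fatty acids from adipose tissue to the liver, where lipin 1, the phosphatidic acid phosphatase encoded by *Lpin1*, takes part in triglyceride synthesis and in transcriptional control of fat oxidation.

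RNA-Seq was performed on liver of 12 BALB/cByJ mice in 4 groups of 3. WT (Lpin1+/+) and Lpin1-/- mice were killed after 16 hours of fasting, or after the same fast followed by 5 hours of refeeding with chow. The Lpin1-/- mice carry the fatty liver dystrophy allele in every cell from conception on, so hepatic and systemic effects of the loss cannot be told apart. Males of a span of adult ages served for sequencing, and the age of each animal is not given in the sources used here. Refed mice were sampled later in the day than fasted mice, so feeding and time of day cannot be told apart.

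*Lpin1* itself was measured at 22.0, 0.726, and 1.76 RPKM in the fasted WT libraries and at 2.92, 0.784, and 2.76 RPKM in the refed WT libraries, against at most 0.0597 RPKM in the 6 Lpin1-/- libraries. Every library matched its genotype label, and WT fasted replicate 1 stood apart from the other WT libraries in *Lpin1*. In distance over all tested genes, WT fasted replicate 1, Lpin1-/- fasted replicate 1, and WT refed replicate 2 lay farthest from the libraries of their own group, and calls lost without 1 of these 3 libraries are given beside the result. Relative depth ranged from 0.866 to 1.16 of that of WT fasted replicate 1. Hepatocyte markers summed to 50290 to 83142 RPKM in the 12 libraries, and none of the 10 was called in any of the 4 comparisons of pairs of groups. The 9 mitochondrial transcripts examined are listed at 0 in every library.

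The 10 genes lie on 6 chromosomes of GRCm38 (positions from GENCODE M21). *Apoa1* (chr9:46228580-46230466, + strand), *Apoc3* (chr9:46232933-46235636, - strand), *Apoa4* (chr9:46240696-46243459, + strand), and *Apoa5* (chr9:46268633-46271919, + strand) form a cluster with gaps of 2.47, 5.06, and 25.2 kb. *Apoe* (chr7:19696109-19699188, - strand) and *Apoc2* (chr7:19671579-19677941, - strand) lie 18.2 kb apart. *Apob* (chr12:7977648-8016835, + strand) is on the chromosome of *Lpin1* (chr12:16535669-16610966, - strand), 8519 kb from it. *Mttp* (chr3:138089854-138144968, - strand), *Apoa2* (chr1:171225054-171226379, + strand), and *Apom* (chr17:35128997-35132050, - strand) lie apart from the other members. *Apoc2* shares its strand and bases with the gene *Gm44805*, which is not in the expression table, so reads of the 2 may not have been told apart. *Mttp* overlaps *Trmt10a* on the opposite strand, which had at most 3.81 RPKM. *Mttp*, *Apoa4*, and *Apoa5* also overlap opposite-strand genes without an expression value. Whether counting kept the strands apart is not given in the sources used here.

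In WT and Lpin1-/- liver alike the mRNAs of *Apoe*, *Apoa1*, *Apoa2*, and *Apoc3* were among the most abundant. *Apob* and *Mttp*, whose proteins start VLDL assembly, had the lowest mRNA means of the 10 genes over the 12 libraries. *Apoe*, the ligand for uptake of remnant particles, averaged 17212 RPKM over the 12 libraries and ranked 3 among 22456 genes. *Apoa1*, the main HDL protein, averaged 16344 RPKM (rank 4), and *Apoa2*, the next HDL protein, 11396 RPKM (rank 6). *Apoe* was above *Apoa1* in 8 of 12 libraries, so the order of these neighbours is not beyond their spread, whereas *Apoa1* was above *Apoa2* in 12 of 12. *Apoc3*, an inhibitor of lipolysis and remnant uptake, followed at 4060 RPKM (rank 22) and was below *Apoa2* in every library. *Apoa4*, a lipid-responsive apolipoprotein of liver and intestine, averaged 1626 RPKM, *Apoc2*, the cofactor of lipoprotein lipase, 1234 RPKM, and *Apoa5*, an activator of triglyceride clearance, 927 RPKM. Their ranges overlapped, with *Apoa4* above *Apoc2* in 10 and *Apoc2* above *Apoa5* in 7 of 12 libraries. *Apom*, the HDL carrier of sphingosine 1-phosphate, averaged 305 RPKM (rank 352) and *Apob* 217 RPKM (rank 484), with *Apom* above *Apob* in 9 of 12 libraries. *Mttp* was lowest at 75.5 RPKM (rank 1216), below *Apob* in all 12. The 10 genes together held 5.94% to 8.48% of the summed RPKM of a library.

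Spread between mice also set the members apart. *Apoe* varied least, with a highest value 1.58-fold above the lowest over the 12 libraries, and *Apoa4* and *Apoc2* varied most, by 10.7-fold and 9.80-fold. *Apoc2* had 1 library far from its group, Lpin1-/- fasted replicate 1 at 3388 RPKM against 809 and 695 RPKM. *Apoa4* had WT refed replicate 1 at 4588 RPKM against 2005 and 1828 RPKM. For these 2 genes the intervals of every comparison were the widest, as the plot of fold changes shows.

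**Figure D1:**
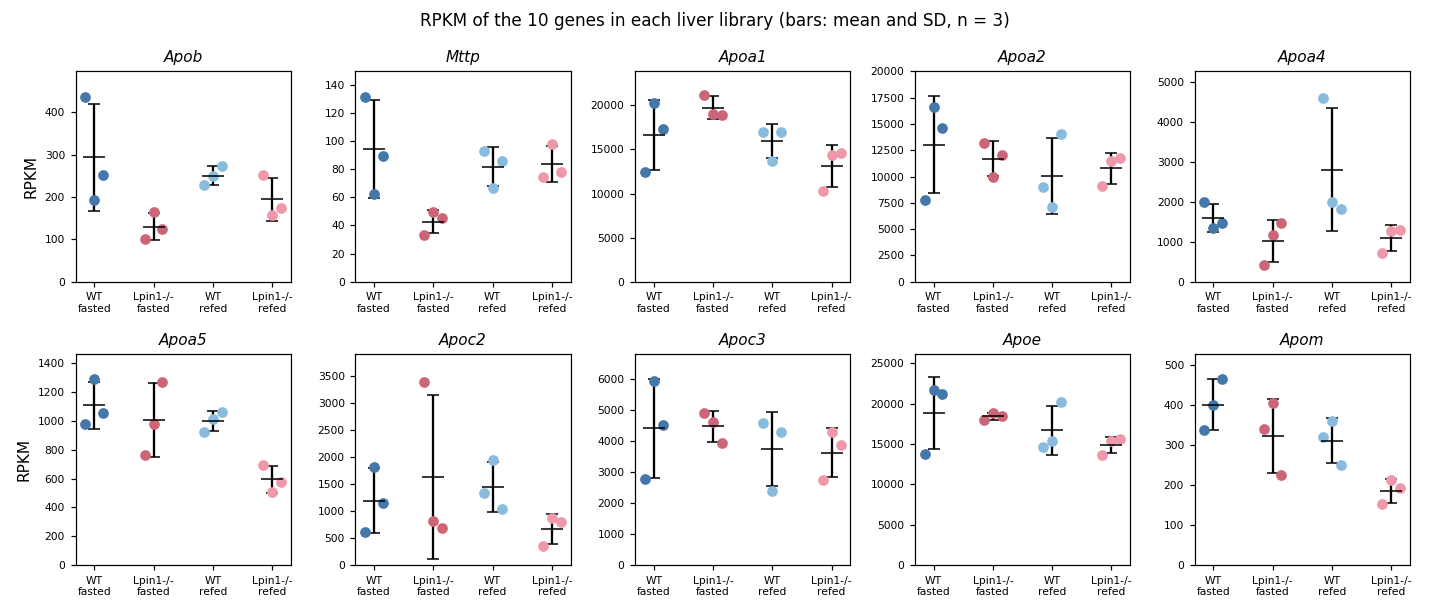
RPKM (y axis, linear, from 0) of each of the 10 genes in the 4 groups (x axis), with a point per library in replicate order and bars for the mean and SD of 3 libraries. The *Apob* and *Mttp* points of fasted Lpin1-/- liver all lie below those of fasted WT liver, and *Apoa4*, *Apoa5*, *Apoc2*, and *Apom* points of refed Lpin1-/- liver all lie below those of refed WT liver.

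The first comparison asked how the absence of lipin 1 altered these mRNAs in the fasted state. The 2 genes that begin VLDL assembly, *Apob* and *Mttp*, were both lower in fasted Lpin1-/- liver, and none of the secreted exchangeable apolipoproteins passed the test. *Apob* stood at 436, 194, and 252 RPKM in fasted WT libraries and at 101, 164, and 125 RPKM in fasted Lpin1-/- libraries. The highest Lpin1-/- library was below the lowest WT library, and the WT libraries differed by up to 2.25-fold among themselves. On the log2(RPKM + 1) scale *Apob* fell by 1.12 (SE 0.30, 0.461-fold, adjusted p = 0.0249 by limma over 11507 genes). *Mttp* stood at 131, 62.0, and 89.2 RPKM in fasted WT and at 33.3, 49.6, and 45.2 RPKM in fasted Lpin1-/- liver. Again no values overlapped, and *Mttp* fell by 1.08 on the log2 scale (SE 0.27, 0.475-fold, adjusted p = 0.0176). The 95% intervals ran from -1.78 to -0.46 for *Apob* and from -1.66 to -0.49 for *Mttp*.

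Genes lower in fasted Lpin1-/- liver were common, with 13.2% of all tested genes called lower and 5.63% called higher, so 2 of 10 members called is close to the background share of 18.8%. Groups did not overlap for 32.9% of all genes, and 33.0% of all genes against 2 of 10 members had an unadjusted p under 0.05. After median-ratio rescaling the share of higher genes among those called went from 29.9% to 41.0%. The fold changes of the members ranged from -1.12 to 0.27 with a median of -0.13, against a median of -0.14 for all genes. Without WT fasted replicate 2 the median of the members turned to 0.03. The other 8 members had adjusted p-values above the threshold, and their groups overlapped. The 95% intervals of *Apoa4* (-1.87 to 0.26) and *Apoc2* (-1.15 to 1.53) included the changes of *Apob* and *Mttp*. A difference between called and other members was not tested. *Apob* and *Mttp* kept the ratio of their levels: *Apob* over *Mttp* was 2.82 to 3.32 in fasted WT and 2.75 to 3.31 in fasted Lpin1-/- libraries. The 2 genes had a Pearson r of 0.82 over the 12 libraries on the log2 scale, which includes the group differences, and of 0.62 for deviations from the group means. These libraries share their groups and their scaling to mapped reads, so the correlation is a description.

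Both calls depended on which libraries entered. *Apob* was not called without WT fasted replicate 1 (-0.79, adjusted p = 0.0626), WT fasted replicate 3 (adjusted p = 0.0631), Lpin1-/- fasted replicate 1 (-0.95, adjusted p = 0.0864), or Lpin1-/- fasted replicate 3 (adjusted p = 0.0601), and *Mttp* not without WT fasted replicate 3 (adjusted p = 0.0605) or Lpin1-/- fasted replicate 1 (adjusted p = 0.0648), and neither in a fit of only the 6 fasted libraries (adjusted p = 0.0816 and 0.0682). Their direction was the same in all 19 alternative fits, with *Apob* between -1.37 and -0.79 and *Mttp* between -1.34 and -0.80.

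Of the marker lists of other cell types, only the stellate and adipose sums did not overlap between the groups of the same comparison. The stellate list summed to 204 to 293 RPKM in fasted Lpin1-/- and 68.7 to 161 RPKM in fasted WT liver with 0 of 8 genes called. Most of the stellate sum came from *Dcn*, which averaged 159 RPKM over the 12 libraries. The endothelial list summed to 50.5 to 69.3 and 21.0 to 53.0 RPKM with 2 of 8 genes called higher, and the Kupffer list to 373 to 1014 and 196 to 406 RPKM with 0 of 11 called. The biliary list summed to 24.9 to 452 and 32.1 to 45.8 RPKM. The lymphocyte list summed to 2.16 to 6.91 and 2.40 to 4.95 RPKM and the erythroid list to 466 to 1940 and 575 to 848 RPKM. None of the tested genes of these last lists was called. The adipose list summed to 73.5 to 105 RPKM against 14.5 to 26.5 RPKM, nearly all from *Fabp4* and *Cidec*, of which 1 was called higher, while *Lep* was at 0 and *Adipoq* and *Plin1* reached at most 0.243 and 0.0391 RPKM. The part of these cells in the values of *Apob* and *Mttp* was not tested, and in whole liver fewer cells of a type and less RNA per cell cannot be told apart. The hepatocyte list summed to 78733 to 83142 RPKM in fasted Lpin1-/- and 61102 to 82030 RPKM in fasted WT liver.

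**Figure D2:**
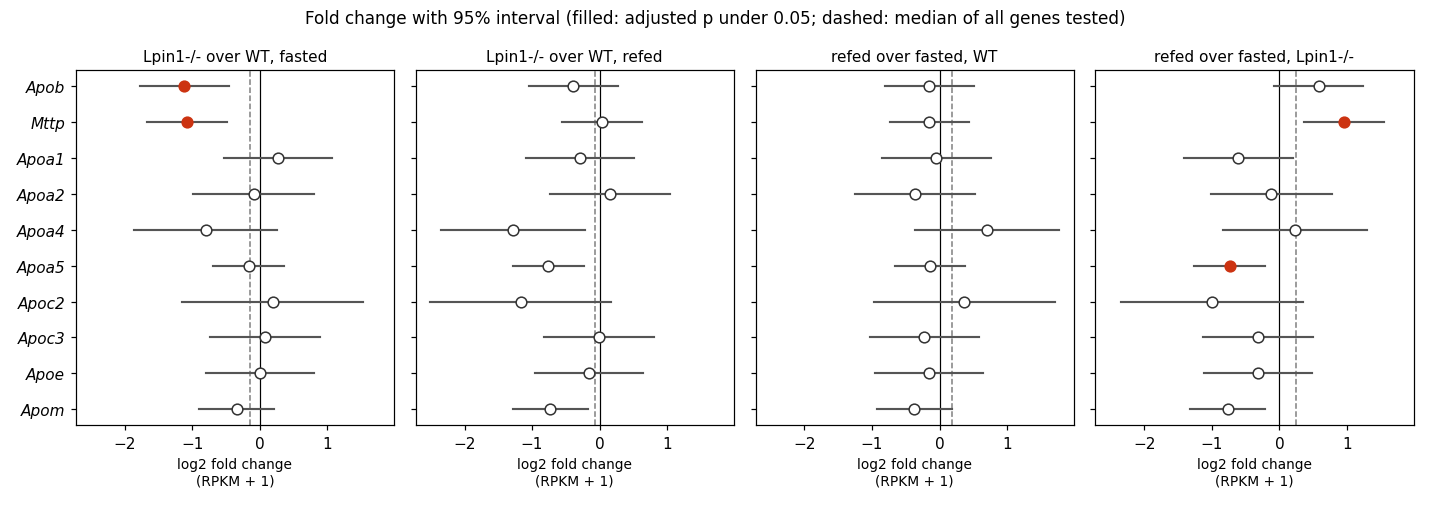
Log2 fold change of RPKM + 1 (x axis) of the 10 genes (y axis) in the 4 comparisons of pairs of groups, with lines for the 95% interval, filled points for adjusted p under 0.05, and a dashed line at the median of all tested genes. *Apob* and *Mttp* are filled at -1.12 and -1.08 in the fasted genotype comparison, *Mttp* at 0.96 and *Apoa5* at -0.74 in the feeding comparison of Lpin1-/- liver, and no gene is filled in the other 2 panels.

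In the refed state none of the 10 genes passed the test between genotypes (limma, adjusted p threshold of 0.05), where 6.67% of all genes did (2.60% higher and 4.07% lower), and 3 of 10 members had an unadjusted p under 0.05, against 22.5% of all genes. After median-ratio rescaling most called genes were higher rather than lower, 57.3% of those called against 39.0% without it. *Apob* was then at 253, 158, and 174 RPKM in Lpin1-/- and 228, 250, and 274 RPKM in WT liver, with overlapping groups. *Mttp* was at 74.1, 98.1, and 77.9 RPKM in Lpin1-/- and 93.0, 66.2, and 85.9 RPKM in WT liver, and the groups overlapped. The intervals of the refed genotype difference were -1.05 to 0.27 for *Apob* and -0.55 to 0.62 for *Mttp*.

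Of the other members, 4 were lower in each refed Lpin1-/- library than in each refed WT library, a pattern that 19.1% of all genes had, with 33.9% apart in either direction. *Apoa4* stood at 714, 1263, and 1293 RPKM in Lpin1-/- and at 4588, 2005, and 1828 RPKM in WT liver (log2 difference -1.28, SE 0.49, limma adjusted p = 0.142). *Apoa5* stood at 698, 508, and 577 RPKM in Lpin1-/- and at 925, 1015, and 1060 RPKM in WT liver (-0.76, SE 0.24, limma adjusted p = 0.0836). The *Apoa5* libraries of each group lay close together, whereas those of *Apoa4* spread widely in WT liver. *Apom* stood at 153, 212, and 192 RPKM in Lpin1-/- and at 321, 361, and 249 RPKM in WT liver (-0.73, SE 0.25, limma adjusted p = 0.109). *Apoc2* stood at 346, 867, and 798 RPKM in Lpin1-/- and at 1341, 1944, and 1043 RPKM in WT liver (-1.17, SE 0.61, limma adjusted p = 0.290). The remaining members, *Apoa1*, *Apoa2*, *Apoc3*, and *Apoe*, had log2 differences between -0.29 and 0.15. The small intestine marker list was also lower in refed Lpin1-/- liver, at 68.7 to 173 RPKM against 461 to 570 RPKM, nearly all from *Fabp2*, the 1 gene of the list called lower, since the other 6 of its 7 genes had means under 0.5 RPKM.

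The feeding comparisons asked how each genotype moved from the fasted to the refed state. In WT liver none of the 10 genes passed the test (limma, adjusted p threshold of 0.05) and none had an unadjusted p under 0.05 or groups that did not overlap. Of all genes 1.72% were called (1.52% higher and 0.200% lower), 13.9% had an unadjusted p under 0.05, and 18.1% had groups that did not overlap, 3.46% with lower values after refeeding. The log2 fold changes in WT liver ran from -0.37 to 0.71, with the largest for *Apoa4*, whose interval was -0.36 to 1.77. Their median was -0.15 against 0.19 for all genes, with 2 of 10 members above the median of all genes.

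In Lpin1-/- liver, where 20.7% of all genes were called, 1 of 10 members rose (17.8% of all genes were called higher) and 1 of 10 fell (2.92% were called lower). An unadjusted p under 0.05 was found for 3 of 10 members and 36.1% of all genes, and groups that did not overlap for 5 of 10 members and 46.8% of all genes. *Mttp* rose from 33.3, 49.6, and 45.2 RPKM in fasted to 74.1, 98.1, and 77.9 RPKM in refed Lpin1-/- liver, with no overlap (0.96 on the log2 scale, SE 0.27, 1.94-fold, limma adjusted p = 0.0279). *Apob* went from 101, 164, and 125 RPKM to 253, 158, and 174 RPKM, which overlap, and was not called. *Apoa5* fell from 761, 980, and 1272 RPKM to 698, 508, and 577 RPKM, by 0.74 on the log2 scale (SE 0.24, limma adjusted p = 0.0491). The *Mttp* call was lost when libraries were rescaled to the median ratio (0.71, adjusted p = 0.0654), with the replicate number as a block (adjusted p = 0.0507), and without Lpin1-/- fasted replicate 1 (0.79, adjusted p = 0.106), Lpin1-/- refed replicate 2 (adjusted p = 0.107), or Lpin1-/- refed replicate 3 (adjusted p = 0.0648), and the *Apoa5* call was lost in 13 of 19 alternative fits, with adjusted p up to 0.169. Among those 13 was the fit without WT refed replicate 2.

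A further 3 members were lower in each refed than in each fasted Lpin1-/- library without passing the test, a pattern of 9.26% of all genes. *Apom* stood at 339, 405, and 224 RPKM in fasted and 153, 212, and 192 RPKM in refed Lpin1-/- liver (-0.76, SE 0.25, limma adjusted p = 0.0527), and it passed in some alternative fits, such as after rescaling to the median ratio (-1.01, adjusted p = 0.0328). *Apoa1* stood at 21197, 19035, and 18867 RPKM in fasted and 10341, 14354, and 14561 RPKM in refed Lpin1-/- liver (-0.61, SE 0.37, limma adjusted p = 0.257). *Apoe* stood at 17997, 18822, and 18465 RPKM in fasted and 13674, 15339, and 15580 RPKM in refed Lpin1-/- liver (-0.31, SE 0.36, limma adjusted p = 0.561). The members thus lay to the lower side of all genes in this comparison, as they did in WT liver. Their median in Lpin1-/- liver was -0.32 against 0.25 for all genes, with 2 of 10 members above the median of all genes. Rescaling moved the median of all genes from 0.25 to 0.06 and the share of higher genes among those called from 85.9% to 68.9%. The Kupffer list summed to 121 to 278 RPKM in refed and 373 to 1014 RPKM in fasted Lpin1-/- liver, with 1 of 11 genes called lower and 11 of 11 with a negative fold change, and its part in these values was not tested.

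The test of the difference between these feeding responses passed for none of the 10 members (limma interaction, adjusted p threshold of 0.05), where 1.28% of all genes passed, and 1 of 10 members against 18.1% of all genes had an unadjusted p under 0.05. The feeding response of *Mttp* differed by 1.11 on the log2 scale between genotypes (SE 0.38, interval 0.28 to 1.94, limma adjusted p = 0.163), so the call in the fasted state is not shown to differ from the refed state. Averaged over both feeding states, *Apob* was lower in Lpin1-/- liver by -0.75 (SE 0.21, limma adjusted p = 0.0270) and *Apoa4* by -1.04 (SE 0.34, limma adjusted p = 0.0499658), against a background of 14.8% of genes called lower and 7.01% called higher. The *Apob* call was lost in 5 of 18 and the *Apoa4* call in 13 of 18 alternative fits. Both were lost without Lpin1-/- fasted replicate 1, and the *Apoa4* call also without WT fasted replicate 1. Averaged over genotypes, *Apom* was lower after refeeding by -0.57 (SE 0.18, limma adjusted p = 0.0463), where 1.84% of genes were called lower and 17.2% higher. That call was lost in 11 of 18 alternative fits, among them the fit without Lpin1-/- fasted replicate 1.

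Other genes of the lipoprotein pathway were taken from 5 lists. Among other apolipoproteins, 4 of 13 tested genes fell and 0 rose in fasted Lpin1-/- against WT liver, with a median of -0.28. Of all genes 13.2% were called lower and 5.63% higher in that comparison. *Apon*, which encodes a plasma apolipoprotein, averaged 311 ± 29.2 RPKM in fasted Lpin1-/- and 849 ± 94.0 RPKM in fasted WT liver (SD, n = 3, log2 change -1.44, limma adjusted p = 0.000901). *Apol7a* averaged 2.37 ± 1.19 RPKM against 39.2 ± 13.4 RPKM (-3.57, limma adjusted p = 0.000305), and *Apol9b* 27.8 ± 22.8 RPKM against 113 ± 38.3 RPKM (-2.19, limma adjusted p = 0.0136). The last 2 belong to a family of near-identical copies whose reads could have been split, so their values are uncertain. *Apol9b* was not called without Lpin1-/- fasted replicate 1 (adjusted p = 0.0521). *Apol7a* was also lower in refed Lpin1-/- liver (-2.92, limma adjusted p = 0.00197), where it was the 1 of 13 called and 4.07% of all genes were called lower. On refeeding of Lpin1-/- liver 2 of 13 rose and 1 fell, where 17.8% of all genes were called higher and 2.92% lower. Among them *Apon* rose to 517 ± 46.9 RPKM (0.73, limma adjusted p = 0.0231). *Saa4*, a constitutive HDL protein, fell from 438 ± 110 to 200.3 ± 107 RPKM (-1.22, limma adjusted p = 0.0455). The *Apon* rise was not called after rescaling (adjusted p = 0.259), nor the *Saa4* fall without Lpin1-/- fasted replicate 1 (adjusted p = 0.0729). Of 19 alternative fits the *Apon* rise was called in 14 and the *Saa4* fall in 9.

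Among the 20 genes of particle assembly and export, 3 fell and 0 rose in fasted Lpin1-/- against WT liver, close to the 13.2% of all genes called lower. On refeeding of Lpin1-/- liver 7 rose and 0 fell, where 17.8% of all genes were called higher and 2.92% lower. *Cideb*, a lipid droplet protein that takes part in VLDL lipidation, averaged 95.6 ± 6.65 RPKM in fasted Lpin1-/- and 269 ± 26.7 RPKM in fasted WT liver (SD, n = 3, -1.48, limma adjusted p = 0.000654). It was also lower in refed Lpin1-/- liver, at 132 ± 12.0 against 272 ± 59.7 RPKM (-1.03, limma adjusted p = 0.0101). *A1cf*, the cofactor of *Apob* mRNA editing, averaged 4.63 ± 1.31 against 22.9 ± 18.0 RPKM in the fasted state (-1.83, limma adjusted p = 0.0213). *Lman1*, a cargo receptor from the endoplasmic reticulum to the Golgi, averaged 16.2 ± 3.45 against 31.7 ± 10.5 RPKM (-0.89, limma adjusted p = 0.0234) and rose on refeeding of Lpin1-/- liver by 1.25 (limma adjusted p = 0.00509). *Hspa5*, the main chaperone of the endoplasmic reticulum, rose on refeeding in WT liver from 254 ± 63.4 to 1329 ± 369 RPKM (2.37, limma adjusted p = 0.00842) and in Lpin1-/- liver from 311 ± 9.72 to 725 ± 179 RPKM (1.19, limma adjusted p = 0.0134). *Sec23a*, a coat protein of vesicles that leave the endoplasmic reticulum, rose on refeeding of Lpin1-/- liver by 1.02 (limma adjusted p = 0.0409). That call was kept in 8 of 19 alternative fits. Without Lpin1-/- fasted replicate 1 the fasted calls of *A1cf* (-1.63, adjusted p = 0.0750) and *Lman1* (-0.71, adjusted p = 0.0826) and the rise of *Sec23a* (adjusted p = 0.151) were lost, and without WT fasted replicate 1 that of *Lman1* (-0.66, adjusted p = 0.0618), while *A1cf* stood at -1.25 there (adjusted p = 0.0484). *Vmp1*, needed for release of lipoproteins from the endoplasmic reticulum membrane, was the 1 gene of this list higher in refed Lpin1-/- than in refed WT liver, at 136 ± 26.3 against 66.8 ± 12.6 RPKM (1.01, limma adjusted p = 0.0201). The *Vmp1* call was kept in 15 of 19 alternative fits, and 2.60% of all genes were called higher in that comparison. After rescaling to the median ratio, 2 rather than 7 genes of the list passed in the feeding comparison of Lpin1-/- liver, with *Hspa5* (adjusted p = 0.115) and *Sec23a* (adjusted p = 0.0697) among those lost, and *Cideb* was not called in the refed state (adjusted p = 0.0533).

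Among 13 genes of particle remodelling, 1 rose and 1 fell in fasted Lpin1-/- against WT liver, where 5.63% of all genes were called higher and 13.2% lower. *Gpihbp1*, which holds lipoprotein lipase at the capillary wall, rose from 19.5 ± 5.96 to 71.3 ± 12.0 RPKM (1.84, limma adjusted p = 0.00243), and *Bmp1*, the protease that matures the *Apoa1* protein, fell from 42.0 ± 12.6 to 17.9 ± 4.09 RPKM (-1.17, limma adjusted p = 0.00569). On refeeding of Lpin1-/- liver, 2 rose and 3 fell, where 17.8% of all genes were called higher and 2.92% lower. *Angptl8*, a feeding-induced regulator of lipoprotein lipase, rose from 14.2 ± 5.46 to 461 ± 343 RPKM (4.59, limma adjusted p = 0.00165) and *Angptl4*, the lipase inhibitor of the fasted state, fell by 2.01 (limma adjusted p = 0.0108), and *Abca1*, the lipid exporter that loads the *Apoa1* protein, rose by 1.53 (limma adjusted p = 0.0342), a call lost without Lpin1-/- fasted replicate 1 (adjusted p = 0.129). In WT liver the refed and fasted groups of *Angptl8* (2.85, limma adjusted p = 0.0692) and *Angptl4* (-1.70, limma adjusted p = 0.0990) did not overlap either. Their feeding responses were not called different between genotypes (limma interaction, adjusted p = 0.372 and 0.816).

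Among 12 tested genes of uptake, 2 rose in fasted Lpin1-/- against WT liver, where 5.63% of all genes were called higher. In the refed state 1 rose and 2 fell, where 2.60% of all genes were called higher and 4.07% lower. *Sdc1*, a heparan sulphate receptor for remnants, was higher in Lpin1-/- liver in the fasted (0.97, limma adjusted p = 0.00564) and the refed state (0.71, limma adjusted p = 0.0469). The refed call was lost without WT refed replicate 2 (adjusted p = 0.0663) and was kept in 7 of 19 alternative fits. *Abcg5*, a sterol exporter, fell on refeeding of Lpin1-/- liver (-0.79, limma adjusted p = 0.0364), a call kept in 10 of 19 alternative fits (adjusted p up to 0.131).

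Among 20 regulators, 1 rose and 4 fell in fasted Lpin1-/- against WT liver, where 5.63% of all genes were called higher and 13.2% lower. *Nr1h4*, the bile acid receptor, averaged 18.4 against 52.2 RPKM (-1.45, limma adjusted p = 0.000836) and rose on refeeding of Lpin1-/- liver by 1.91 (limma adjusted p = 0.000350). *Nr5a2* (-1.24, limma adjusted p = 0.0357) and *Foxa1* (-1.17, limma adjusted p = 0.0151), liver transcription factors, fell in the same comparison. Without Lpin1-/- fasted replicate 1 neither was called (adjusted p = 0.125 and 0.0523), and *Nr5a2* was also lost without WT fasted replicate 1 (-0.85). *Nr5a2* was called in 10 of 19 and *Foxa1* in 15 of 18 alternative fits. On refeeding of Lpin1-/- liver 7 regulators rose and 2 fell, where 17.8% of all genes were called higher and 2.92% lower. Among those that rose were *Foxa2* (4.38 to 20.9 RPKM, limma adjusted p = 0.00351) and *Onecut1* (2.35, limma adjusted p = 0.0234, or 0.0863 without Lpin1-/- fasted replicate 1). In WT liver *Onecut1* differed by 2.62 between refed and fasted groups, which did not overlap (SE 0.63, limma adjusted p = 0.0681), and its feeding responses were not called different (interaction -0.27, limma adjusted p = 0.883). In refed liver *Srebf2*, the regulator of cholesterol synthesis, was lower in Lpin1-/- than in WT liver (-1.33, limma adjusted p = 0.0160), as were *Nr0b2* (-1.16, limma adjusted p = 0.0453) and *Nr1d1* (-1.06, limma adjusted p = 0.0374). After rescaling *Srebf2* was called, and *Nr0b2* (-1.04, adjusted p = 0.119) and *Nr1d1* (-0.95, adjusted p = 0.0692) were not. Of 19 alternative fits *Srebf2* was called in 16, *Nr0b2* in 7, and *Nr1d1* in 9. No regulator was called in the feeding comparison of WT liver, where 1.72% of all genes were.

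**Figure D3:**
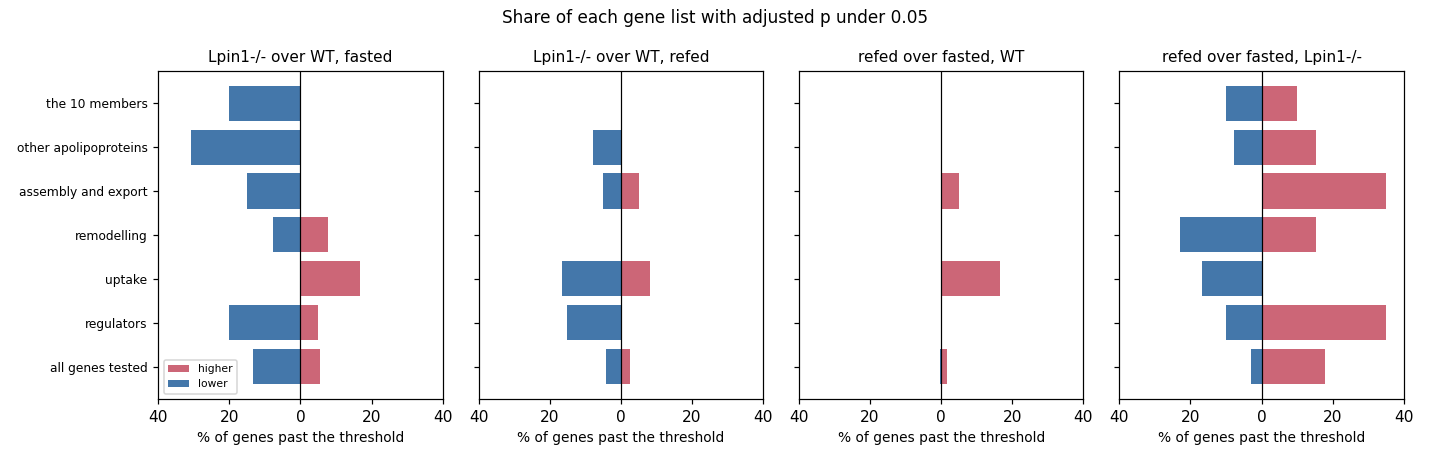
Share of tested genes with adjusted p under 0.05 (x axis, percent, higher to the right and lower to the left of 0) for the 10 members, the 5 pathway lists, and all tested genes (y axis) in the 4 comparisons of pairs of groups. In the feeding comparison of WT liver 1 of 20 genes of assembly and 2 of 12 of uptake are past the threshold and none of the other lists. Of all genes tested 1.72% are past it there. In the feeding comparison of Lpin1-/- liver all genes tested reach 17.8% higher and 2.92% lower.

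The splicing tables asked whether exons were skipped at different rates in the 2 genotypes. An SE event is an exon with its neighbours on both sides. Its inclusion reads lie on the exon or on its junctions, and its skipping reads join the neighbours directly. In fasted liver 289 events of the 10 genes were tested and 101 passed, all with lower inclusion in Lpin1-/- liver, in *Apoa1* (34 of 38), *Apoa2* (22 of 84), *Apoa4* (7 of 7), *Apoc3* (12 of 62), and *Apoe* (26 of 67). Of all 69644 events tested 11.3% passed (7.81% with lower and 3.52% with higher inclusion), of which 68.9% had lower inclusion in Lpin1-/- liver, and of the 4212 events in 84 other genes averaging 1000 RPKM or more 13.8% passed, of which 86.4% were lower. Events of the same gene share reads, so they are not separate observations. The 101 events used 8 skipping junctions, and each of the 8 joins annotated exon ends.

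The exons shown are the annotated coding exons that those junctions leave out, 1 for each of the 5 genes, read from GENCODE M21 transcripts on GRCm38. Capitals mark the skipped exon and lower case the 20 coding bases on either side, which the skipping reads join.
Apoa1 exon 3 (chr9:46229116-46229269, + strand): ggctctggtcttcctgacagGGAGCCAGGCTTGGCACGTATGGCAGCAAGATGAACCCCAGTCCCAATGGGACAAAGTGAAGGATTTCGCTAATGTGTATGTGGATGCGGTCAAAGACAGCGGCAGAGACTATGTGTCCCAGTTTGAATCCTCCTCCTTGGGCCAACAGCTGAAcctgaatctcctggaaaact
Apoa2 exon 3 (chr1:171225666-171225798, + strand): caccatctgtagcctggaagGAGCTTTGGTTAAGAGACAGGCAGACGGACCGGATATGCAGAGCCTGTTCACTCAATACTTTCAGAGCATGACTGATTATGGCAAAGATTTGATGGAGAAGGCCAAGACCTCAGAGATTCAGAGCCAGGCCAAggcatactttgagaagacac
Apoa4 exon 2 (chr9:46241468-46241594, + strand): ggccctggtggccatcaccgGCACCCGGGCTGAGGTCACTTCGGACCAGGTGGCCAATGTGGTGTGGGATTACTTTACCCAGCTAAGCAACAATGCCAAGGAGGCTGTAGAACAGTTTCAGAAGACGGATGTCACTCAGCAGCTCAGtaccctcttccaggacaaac
Apoc3 exon 3 (chr9:46234417-46234540, - strand): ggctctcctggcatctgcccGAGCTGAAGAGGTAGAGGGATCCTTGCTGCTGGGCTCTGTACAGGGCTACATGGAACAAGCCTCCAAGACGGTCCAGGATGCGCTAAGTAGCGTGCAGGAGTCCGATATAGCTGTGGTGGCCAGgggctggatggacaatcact
Apoe exon 3 (chr7:19697479-19697647, - strand): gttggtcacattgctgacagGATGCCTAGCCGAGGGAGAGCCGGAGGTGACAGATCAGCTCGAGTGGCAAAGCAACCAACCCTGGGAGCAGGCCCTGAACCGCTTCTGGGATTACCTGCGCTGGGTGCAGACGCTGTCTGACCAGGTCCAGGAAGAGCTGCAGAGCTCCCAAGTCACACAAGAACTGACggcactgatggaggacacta

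The 5 exons are 154 (*Apoa1*), 133 (*Apoa2*), 127 (*Apoa4*), 124 (*Apoc3*), and 169 bases long (*Apoe*). Each length leaves a remainder of 1 when divided by 3, so that joining the neighbours changes the reading frame. The shifted frame meets a stop codon after 15 codons in *Apoa1* (264 in the full reading frame), 27 in *Apoa2* (of 102), 44 in *Apoa4* (of 395), 28 in *Apoc3* (of 99), and 16 in *Apoe* (of 311). Whether such transcripts are translated or degraded was not measured. These tables carry no replicate numbers, so reads are given in the order in which a group's libraries stand there.

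*Apoa1* exon 3 was left out by 15, 9, and 20 reads in fasted WT and by 1542, 2120, and 556 reads in fasted Lpin1-/- libraries. Every Lpin1-/- library was far above every WT library, beside inclusion reads of similar number in both genotypes, 578619 to 846451 in WT and 832460 to 861648 in Lpin1-/- liver. Per unit of length, skipping made up 0.00683% ± 0.00291 in WT and 0.539% ± 0.308 in Lpin1-/- liver (SD, n = 3), and the log2 ratio of inclusion to skipping fell by 6.16 (SE 0.87, limma adjusted p = 0.00118 over all events). Transcripts without the exon thus remained under 1% of *Apoa1* mRNA in every fasted library, the highest being 0.825%. A junction that leaves out exons 2 and 3 together had 0 reads in every fasted WT library, which allows a share of up to 0.000586%, and 63, 79, and 32 reads in Lpin1-/- libraries (limma adjusted p = 0.000785). A junction from exon 1 to exon 3, which leaves out exon 2, had 3, 1, and 3 reads in WT and 45, 38, and 31 reads in Lpin1-/- liver (limma adjusted p = 0.0140), a call lost without the second listed WT library (adjusted p = 0.0724).

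*Apoa2* exon 3 was left out by 20, 25, and 51 reads in fasted WT and by 901, 628, and 264 reads in fasted Lpin1-/- libraries, a share of 0.0341% ± 0.0132 and 0.736% ± 0.383 (SD, n = 3). The log2 ratio of inclusion to skipping fell by 4.31 (SE 0.84, limma adjusted p = 0.00626). The junction from its exon 1 to exon 4 had 0, 1, and 0 reads in WT and 84, 58, and 44 reads in Lpin1-/- liver (limma adjusted p = 0.000823).

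*Apoa4* exon 2 was left out by no read in the 3 fasted WT libraries, which allows a share of up to 0.00614%, and by 98, 119, and 25 reads in fasted Lpin1-/- libraries (limma adjusted p = 0.000854). The share in Lpin1-/- liver was 1.38% ± 1.39 (SD, n = 3), from 0.169% to 2.90%, so the libraries agree in direction and differ widely in size. *Apoc3* exon 3 had no skipping read in fasted WT liver, which allows up to 0.00181%, and 6, 8, and 9 reads in Lpin1-/- liver (limma adjusted p = 0.00663). *Apoe* exon 3 had 10, 24, and 25 skipping reads in WT and 173, 269, and 70 in Lpin1-/- liver, a share of 0.00793% ± 0.00253 and 0.0774% ± 0.0432 (SD, n = 3, log2 change -3.09, limma adjusted p = 0.0356). The call of this *Apoe* event was lost on leaving out any library other than the third listed Lpin1-/- library, with adjusted p from 0.0831 to 0.135.

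In *Apob* (20 events), *Mttp* (6), *Apoa5* (1), *Apoc2* (2), and *Apom* (2) no fasted event passed (limma, adjusted p threshold of 0.05), with 3 events of *Mttp* and 0 of the others at an unadjusted p under 0.05. The 2 genes whose mRNA level was lower in fasted Lpin1-/- liver were therefore not among the 5 with called events. Those 5 were the most abundant members, at means of 1626 to 17212 RPKM, against 75.5 to 1234 RPKM for the other members. The part of abundance in which events were called was not tested.

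**Figure D4:**
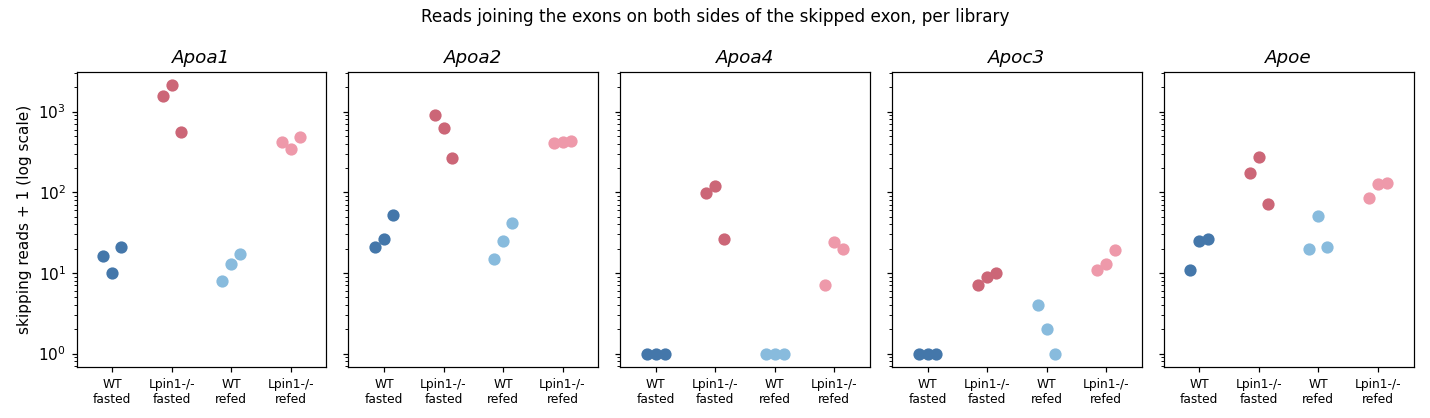
Reads that join the exons on both sides of the skipped exon (y axis, count plus 1 on a log scale) for the exon shown of 5 genes, with a point per library in the order listed for the 4 groups (x axis). In the fasted panels *Apoa1* goes from 9 to 20 reads in WT to 556 to 2120 reads in Lpin1-/- liver, and *Apoa4* from 0 reads to 25 to 119 reads.

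In refed liver 34 of 305 tested events of the members passed, where 0.970% of all 65231 events did, again all with lower inclusion in Lpin1-/- liver. They lay in *Apoa1* (12 of 35, on 1 skipping junction), *Apoa2* (20 of 85, on 2 junctions), and *Apoa4* (2 of 2, on 1 junction). Events on the same junction share its reads, so they are not separate observations. Of the 3877 events of those other abundant genes 2.27% passed. *Apoa1* exon 3 had 7, 12, and 16 skipping reads in refed WT and 422, 348, and 486 in refed Lpin1-/- libraries, a share of 0.00531% ± 0.00170 and 0.209% ± 0.0499 (SD, n = 3, log2 change -5.26, SE 0.69, limma adjusted p = 0.0137). *Apoa2* exon 3 had 14, 24, and 41 against 411, 420, and 437 skipping reads, a share of 0.0340% ± 0.00868 and 0.479% ± 0.0362 (log2 change -3.82, SE 0.66, limma adjusted p = 0.0293, n = 3). *Apoa4* exon 2 had no skipping read in refed WT liver, which allows up to 0.00372%, and 6, 23, and 19 reads in refed Lpin1-/- liver (limma adjusted p = 0.0125).

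The other 2 exons shown had higher skipping reads in each refed Lpin1-/- library than in each WT library but were not called. *Apoc3* exon 3 had 3, 1, and 0 reads in WT and 10, 12, and 18 in Lpin1-/- liver (limma adjusted p = 0.135). *Apoe* exon 3 had 19, 50, and 20 reads in WT and 83, 127, and 128 in Lpin1-/- liver (limma adjusted p = 0.263). No refed event of *Apob*, *Mttp*, *Apoc2*, *Apoc3*, or *Apoe* passed (limma), with 0, 0, 1, 15, and 14 events at an unadjusted p under 0.05. The *Apob* event with the most reads of its rarer form, a 99-base segment of *Apob* not annotated as an exon, was skipped at 14.7% ± 0.203 in WT and 10.7% ± 1.19 in Lpin1-/- liver (SD, n = 3, limma adjusted p = 0.695). The refed calls were lost in full without any 1 of the 6 refed libraries, while the fold changes kept their direction, with *Apoa1* exon 3 between -5.47 and -4.98 and limma adjusted p from 0.0599 to 0.0945. The fasted and refed tables were tested apart, and the difference between the states in skipping was not tested.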

How the data were processed

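Values were those of 12 liver libraries, grouped by their genotype and feeding labels. The RPKM values were deposited by the authors, who aligned stranded paired reads with HISAT2 (2.0.5) to GRCm38 and counted them per gene with HTSeq (0.6.0), per the submitters' processing notes. Those notes also name DESeq2 (1.20.0), whose counts were not used here, so log2(RPKM + 1) was compared with limma (3.58.1, R 4.3.3) in 1 fit of 4 groups with a variance trend. Genes averaging under 0.5 RPKM were left out, and Benjamini-Hochberg adjustment ran over 11507 genes, threshold 0.05. Whole-number counts of reads for inclusion and skipping, deposited by the authors from rMATS, were divided by the length of each form after 0.5 was added, and the log2 ratio of the forms was compared with limma where both forms together had 10 or more reads in each library. The WT list in each table was identified from the WT table, with identical counts in 1523 of 1523 fasted and 1719 of 1719 refed events. The authors' own p-values, fold changes, and event selections were not used.

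Scaling to mapped reads makes a value relative to the rest of the library, and mapped read totals are not in the expression table, so precision rests on the spread between the 3 mice of a group. Limits at a count of 0 use 3 reads over the 3 libraries and cover counting error only. All 10 members were named. Of each list, at most 3 called genes with groups that did not overlap and the largest fold change were named per comparison. Some genes of the uptake list that the rule selects are not reported here. Members, lists, and tests were chosen with earlier results of these data known. Fits were tested on simulated data, with larger expression changes than those called for the members. Simulated splicing changes were placed in events with more skipping reads on average than the *Apoc3* event. Smaller changes and counts were thus not covered. Alternatives were a pseudocount of 0.1, no minimum, a minimum of 5 RPKM, median-ratio rescaling, a replicate block, no variance trend, a fit of the 6 libraries of a comparison alone, and leaving out single libraries. Event alternatives were a minimum of 20 counts, 1 added to each count, and single libraries left out.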

Additional observations from a re-analysis of the deposited data

How the results depend on the processing

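Fold changes of called members and named genes kept their sign in the alternatives run. Medians and shares of directions did not all do so, since the median of the members between genotypes in the fasted state turned from -0.13 to 0.03 without WT fasted replicate 2. Leaving out a library in turn gave 0 to 2 members called between genotypes in the fasted state (2 with all libraries), 0 to 3 on refeeding of Lpin1-/- liver (2), 0 to 2 between genotypes on average (2), 0 to 2 between feeding states on average (1), 62 to 113 called member events in the fasted (101) and 0 in the refed state (34). It gave 0 members in the other comparisons, as with all libraries. With only the 6 libraries compared, 0 members were called between genotypes in the fasted state and 1 (*Mttp*) on refeeding of Lpin1-/- liver. Without the minimum of 0.5 RPKM, 1 was called in the latter, 1 (*Apob*) between genotypes on average and 0 between feeding states on average. Without the variance trend 4 were called between genotypes on average. Median-ratio rescaling gave 1 member (*Apom*) on refeeding of Lpin1-/- liver and 1 (*Apob*) between genotypes on average, and changed lists to 1 of the other apolipoproteins (3) and 2 of assembly and export (7) on refeeding of Lpin1-/- liver, 1 of uptake on refeeding of WT liver (2), 4 of uptake between genotypes in the fasted state (2), and 1 regulator between genotypes in the refed state (3).

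Replicate numbers are shared by the groups, and the labels state no pairing of samples. Deviations of same-numbered libraries correlated at -0.47 to 0.74, with 8 of 18 pairs over 0.1. Libraries of unlike number were not set beside them, so these values cannot decide whether samples are paired. With a replicate block, 2 members were called between genotypes in the fasted state, 0 on refeeding of Lpin1-/- liver (*Mttp* at adjusted p = 0.0507 and *Apoa5* at 0.0784), 1 between genotypes on average, and 0 between feeding states on average.

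Over all genes, calls on refeeding of WT liver went from 198 to 49 with rescaling, 93 with the block, 0 with only 6 libraries, and 23 to 229 without 1 library. Calls between genotypes in the fasted state went from 2168 to 1011 with only 6 libraries and 1040 to 2316 without 1 library, those in the refed state from 767 to 243 to 1048 without 1 library, and those on refeeding of Lpin1-/- liver from 2382 to 1119 to 3105. Interaction calls went from 147 to 321 with rescaling, 83 without the minimum, 81 with the block, and 30 to 176 without 1 library. Calls between feeding states on average went from 2192 to 1205 with rescaling and 1277 to 3272 without 1 library. Rescaling moved the share of higher genes among those called from 88.4% to 63.3% on refeeding of WT liver, from 29.9% to 41.0% and from 39.0% to 57.3% between genotypes in the fasted and refed states, from 32.2% to 48.8% between genotypes on average, and from 90.3% to 66.1% between feeding states on average. The causes were not tested. With 3 mice a group, precision was limited by the spread between mice, and for skipping of *Apoc3* by counts under 20.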

Other observations

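The genes whose levels followed a member most closely over the 12 libraries were taken for the 3 members with the widest range of group means, as a description that includes group differences and scaling. *Apob* was followed by *Cdh2* (Pearson r = 0.98), *Bmp1* (0.96), and *Med16* (0.96) on the log2(RPKM + 1) scale. *Apoc2* was followed by *Rdh5* (0.97), *Nenf* (0.97), and *Nudt14* (0.97), and *Apoa4* by *Asb13* (0.92), *B3gntl1* (0.90), and *Evi5l* (0.90), all over 12 libraries.

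The pairs that follow were chosen after their values were seen. Among the members, *Apoa1* and *Apoc3*, which neighbour each other on chromosome 9, had a Pearson r of 0.83 over the 12 libraries and of 0.94 for deviations from the group means, while *Apoa4* of the same cluster had an r of -0.08 with *Apoa1*. *Apob* ran against *Apoa1* within groups, at an r of -0.86. The RPKM of *Apoc2* was 0.316 to 0.435 of that of *Apoc4* in 10 of 12 libraries and 0.754 and 0.887 of it in WT refed replicate 2 and Lpin1-/- fasted replicate 1.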
